A study of Homo sapiens with 74 samples.

Results

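The genes described here are 45 components of the DNA replication machinery and of S phase, chosen by name, with no measured value in the rule: the 6 subunits of the origin recognition complex, the licensing loaders CDC6 and CDT1, the MCM helicase and its activators, the replicative polymerases, the clamp and clamp loader, single-strand binding proteins, Okazaki fragment enzymes, nucleotide-supply enzymes, cyclin E, and 4 genes of fork protection and chromatin inheritance. All 45 were present once each among the 39037 genes of the RNA table, and all 45 were among the 17740 genes with enough reads to be tested. The study developed single-cell DamID in HEK293T, an established line derived from human embryonic kidney and expressing SV40 large T antigen. In DamID a bacterial adenine methyltransferase (Dam) fused to a chromatin protein, here lamin B1 (LMNB1) of the nuclear lamina, marks the DNA that the protein touches. The RNA libraries are polyA RNA from bulk cells in 4 groups of 2: untreated cells, cells transfected with m6A-Tracer (a fluorescent protein that binds methylated GATC sites), cells transfected with DamV133A (a mutant Dam with no fusion partner), and cells transfected with the DamV133A-LMNB1 fusion.

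Several features of the samples limit them as a model. Transfection was transient, so a bulk library mixes cells that took up the construct with cells that did not, and fewer cells of a state and less RNA per cell cannot be told apart. The treatment text for every sample describes a Dam-LMNB1 and m6A-Tracer transfection with 1 mM Shield-1, a ligand that stabilizes the construct, for 20 hours, so it does not say which of these steps the untreated and single-construct RNA groups received. There is no mock-transfected RNA group. Nothing says whether the 2 libraries of a group came from separate cultures, so p-values measure the spread between these libraries, which may be technical.

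In a cycling cell, origins are licensed in G1, when ORC, CDC6 and CDT1 load the MCM2-7 helicase onto DNA. At the start of S phase the helicase is activated by CDC45 and GINS, and polymerases, clamp and loader assemble on the opened fork. Many of these genes are transcribed under E2F transcription factors, which the retinoblastoma proteins hold in check, and large T antigen binds the retinoblastoma proteins.

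The promoters are shown because an E2F motif is the sequence feature that replication genes are best known for, and because it could be set against the RNA differences described further on. The RefSeq promoter table (GRCh38.p14, 250 bases before to 50 after each start, 300 in all) held 39 of the 45 genes in 49 windows. RPA2, RPA3, GINS4, CCNE2, MCM4 and MCM5 were not among them. The motif searched on both strands was TTT, then 2 bases that are each C or G, then CGC, in its forms TTTCCCGC, TTTCGCGC, TTTGCCGC and TTTGGCGC. It matched 18 of the 39 genes (46.2%), against 5.40% of the 15843 protein-coding genes with a window. Counted by window, it matched 19 of 49 (38.8%), against 3.31% of all 35116 windows. A match is a description of letters, not a binding site. The 6 windows below belong to genes with small adjusted p-values in the RNA comparisons, 4 that hold a match (CDC6, POLA2, POLE, MCM7) and 2 that do not (RFC5, RRM2). Each is printed 5′ to 3′ on the gene's strand, with the motif in capitals; on POLE, and at the first of 2 places on MCM7, the motif lies on the other strand. CDC6 is chr17:40287629-40287928 (+), POLA2 is chr11:65261712-65262011 (+), POLE is chr12:132687293-132687592 (-), MCM7 is chr7:100101348-100101647 (-), RFC5 is chr12:118016453-118016752 (+) and RRM2 is chr2:10122489-10122788 (+).
CDC6: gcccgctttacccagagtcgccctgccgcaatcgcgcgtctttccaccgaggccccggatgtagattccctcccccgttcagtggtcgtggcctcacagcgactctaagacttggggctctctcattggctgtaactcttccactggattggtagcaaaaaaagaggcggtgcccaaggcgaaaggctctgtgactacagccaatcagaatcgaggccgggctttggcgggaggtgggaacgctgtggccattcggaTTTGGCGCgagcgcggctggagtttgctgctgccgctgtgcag
POLA2: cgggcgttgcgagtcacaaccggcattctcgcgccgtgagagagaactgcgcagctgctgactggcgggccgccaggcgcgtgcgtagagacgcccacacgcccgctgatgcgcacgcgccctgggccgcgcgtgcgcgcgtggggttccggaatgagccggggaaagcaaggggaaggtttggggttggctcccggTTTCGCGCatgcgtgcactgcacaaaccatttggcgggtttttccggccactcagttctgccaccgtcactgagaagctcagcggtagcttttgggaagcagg
POLE: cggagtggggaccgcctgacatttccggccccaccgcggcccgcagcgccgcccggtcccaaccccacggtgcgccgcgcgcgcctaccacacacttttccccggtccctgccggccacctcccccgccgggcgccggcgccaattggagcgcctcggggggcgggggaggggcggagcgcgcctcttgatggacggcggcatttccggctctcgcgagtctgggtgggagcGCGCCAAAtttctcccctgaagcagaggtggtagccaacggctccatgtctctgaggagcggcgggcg
MCM7: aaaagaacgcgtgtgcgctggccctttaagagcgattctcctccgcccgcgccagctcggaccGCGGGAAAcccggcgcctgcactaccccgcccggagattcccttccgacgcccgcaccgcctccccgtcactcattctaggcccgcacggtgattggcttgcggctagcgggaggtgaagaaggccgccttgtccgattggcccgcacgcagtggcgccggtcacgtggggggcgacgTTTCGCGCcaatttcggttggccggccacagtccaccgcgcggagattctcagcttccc
RFC5: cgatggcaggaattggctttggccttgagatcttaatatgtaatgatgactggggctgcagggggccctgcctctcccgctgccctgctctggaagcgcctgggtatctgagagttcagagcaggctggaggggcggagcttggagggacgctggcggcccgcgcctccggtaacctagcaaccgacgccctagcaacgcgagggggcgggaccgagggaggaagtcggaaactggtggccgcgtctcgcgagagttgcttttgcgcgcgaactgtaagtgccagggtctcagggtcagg
RRM2: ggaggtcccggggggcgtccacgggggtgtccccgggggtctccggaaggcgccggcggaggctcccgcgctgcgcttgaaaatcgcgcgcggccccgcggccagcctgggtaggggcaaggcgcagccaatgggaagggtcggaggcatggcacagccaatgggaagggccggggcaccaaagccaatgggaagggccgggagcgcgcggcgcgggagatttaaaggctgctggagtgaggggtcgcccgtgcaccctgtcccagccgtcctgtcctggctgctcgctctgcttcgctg

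Most matches sat close to the start. Of 25 matches in the 19 windows, 16 began within 60 bases before the start or after it, and the outermost lay at -187 (MCM7) and 8 (CDC6). All 4 MCM2-7 helicase genes with a window (MCM2, MCM3, MCM6 and MCM7) held at least 1 match. MCM6, which encodes a helicase subunit, held 4, as 2 pairs in which TTTGGCGC on the gene's strand overlaps TTTCGCGC on the other. MCM2 held a pair at positions 3 and 7 after its start. Among the other motifs, the CCAAT box (CCAAT) was in 61.5% of the 39 genes and 42.1% of coding genes, and the GC box (GGGCGG) in 76.9% and 64.3%. The cell cycle homology element (TTTGAA or TTCGAA), known from promoters of late cell cycle genes, was in 5.13% of them and 17.5% of coding genes. None of these shares was tested.

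**Figure D1:**
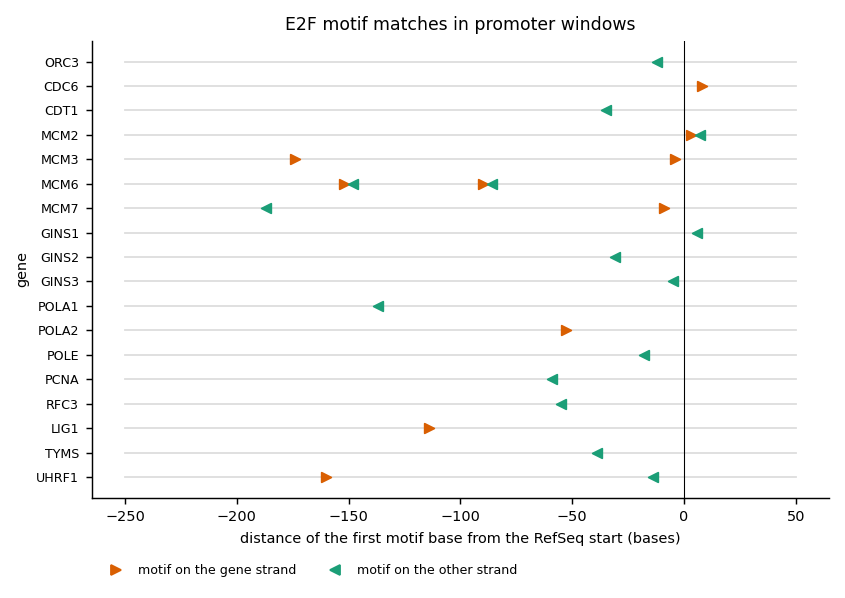
Distance of the first base of each E2F motif match from the RefSeq start (x axis, bases) in the promoter windows of the 18 replication genes with a match (y axis); orange triangles are matches on the gene's strand, green triangles on the other strand, and grey lines the 300-base windows. The matches crowd towards the start, with 16 of 25 from -60 onwards, and MCM6 carries 2 close pairs.

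The libraries held 39690886 to 51455298 estimated counts each, and the 45 genes had 892 to 36419 counts per library, so counting error is small for every one of them. Levels below are TMM-normalised CPM, a read count made comparable between libraries of unlike depth but not between genes of unlike length, so no gene's level is set against another's. LMNB1, the gene carried by the fusion, was at 767 and 768 CPM in the untreated libraries, 251 and 257 with m6A-Tracer, 249.6 and 253 with DamV133A, and 2548 and 2056 with the fusion, whose cDNA adds reads. LMNB1 was thus highest in the libraries labelled as the fusion, and it was lower in m6A-Tracer and DamV133A cells than in untreated ones. Whether the LMNB1 reads of the untreated libraries, the reference of 3 comparisons, are all from the cells' own gene, with no carry-over between libraries, was not tested. The 2 fusion libraries stood apart from each other: the median absolute log2 difference over genes was 0.217 between them, against 0.073, 0.075 and 0.072 between the untreated, m6A-Tracer and DamV133A pairs. Of 6 genes expressed in HEK293T (VIM, KRT8, KRT18, NEFL, NEFM, INA), NEFL, NEFM and VIM were lower than untreated in all 3 transfected groups, and the summed level of the 6 was 1311 to 1356 CPM in untreated libraries and 932 to 1105 in the others. Of 8 markers of other cell types, 6 stayed under 1 CPM in every library, none was at 0 in all, COL1A1 was at 24.5 to 29.8 CPM, and the 8 summed to 27.0 to 31.7 CPM. Mitochondrial genes took 0.803% to 0.940% of counts in the untreated, DamV133A and fusion libraries and 1.25% and 1.26% in the m6A-Tracer pair. The part of these differences in the results below was not tested.

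Replication gene RNA lay within a narrow band across all 8 libraries. The median absolute log2 difference from untreated was 0.13 with the fusion, 0.10 with DamV133A and 0.11 with m6A-Tracer. For the 8335 genes at or above the level of the lowest of the 45, it was 0.16, 0.18 and 0.13. Whether the band is narrower than for other genes was not tested. The ratio of the highest to the lowest library had a median of 1.24 over the 45 genes, was smallest at 1.04 and largest at 1.62 (POLE, the catalytic subunit of the leading-strand polymerase). Summed over the 45 genes, the level was 7723 and 7724 CPM in the untreated libraries, 7798 and 7809 with m6A-Tracer, 7865 and 7820 with DamV133A, and 8121 and 8367 with the fusion. The groups did not overlap in this sum, and every transfected library was above both untreated ones. The order of the groups depends on the scaling: as a share of all counts the 45 genes took 0.750% in both untreated libraries, 0.793% and 0.794% with m6A-Tracer, 0.813% and 0.810% with DamV133A, and 0.806% in both fusion libraries. A set of 24 genes of G2 and mitosis summed to 3616 and 3623 CPM untreated, 4121 and 4209 with m6A-Tracer, 4308 and 4355 with DamV133A, and 4028 and 3740 with the fusion.

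**Figure D2:**
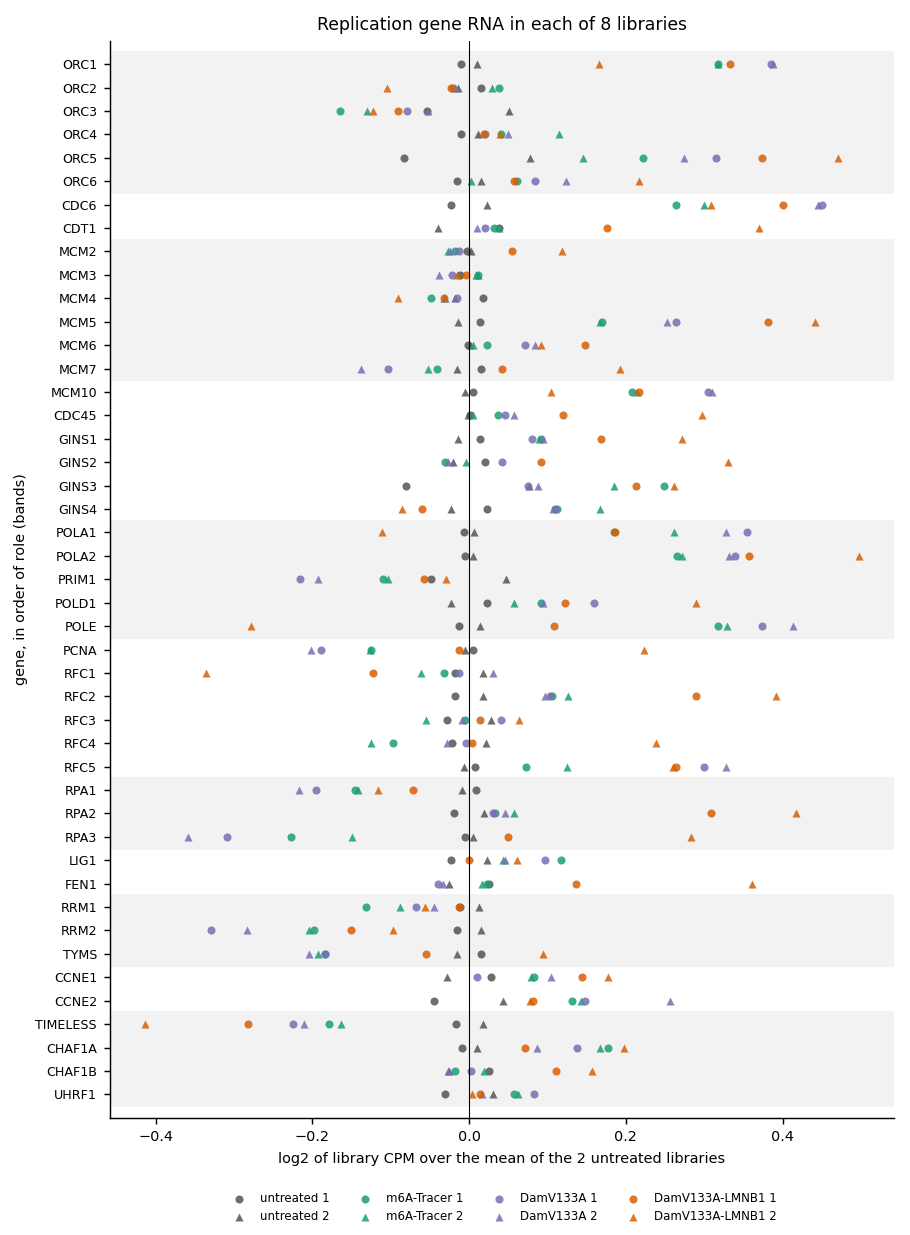
Log2 of the CPM in each of 8 libraries over the mean of the 2 untreated libraries (x axis) for the 45 replication genes (y axis, grouped by role in bands); colours are groups, circles and triangles libraries 1 and 2. CDC6, POLA2 and ORC1 lie to the right of 0 in all 6 transfected libraries, RRM2 and TIMELESS lie to the left in all 6, and the 2 fusion libraries are far apart for POLE.

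A call below means an adjusted p under 0.05 in edgeR's quasi-likelihood test, fitted over the 8 libraries in 4 groups and adjusted with Benjamini-Hochberg over the 17740 genes. Against untreated cells, 12 of the 45 genes were higher and 1 lower with the fusion, where 18.9% of all genes tested were called (11.4% higher and 7.56% lower). With DamV133A, 9 were higher and 6 lower, where 26.7% of all genes were called (13.6% higher and 13.1% lower). With m6A-Tracer, 4 were higher and 1 lower, where 12.3% of all genes were called (7.62% higher and 4.67% lower). Well expressed genes are called more often: among the 8335 genes at or above the level of the lowest of the 45, the shares were 26.4%, 35.5% and 16.2%, and the shares of the 45 were 28.9%, 33.3% and 11.1%. The shares called among the replication genes were thus near those of the 8335 genes in all 3 comparisons. The 8335 share only a lowest level with the 45 and were not otherwise matched to them in level. By direction, 16.1% of the 8335 were higher and 10.3% lower with the fusion, beside the 12 and 1 of 45. The median log2 difference over the 45 was 0.12, 0.04 and 0.03 for fusion, DamV133A and m6A-Tracer, beside -0.00, 0.01 and 0.01 over all genes tested. No gene of the 45 differed from untreated by more than 0.5 on the log2 scale. These 3 comparisons share the untreated libraries, so likeness between them carries no weight of its own. Without untreated library 1 the counts called were 1, 3 and 0 for fusion, DamV133A and m6A-Tracer, and without untreated library 2 they were 4, 5 and 0. Without either m6A-Tracer library they were 8, 10 and 0, and without either DamV133A library they were 8, 3 and 1. Leaving out either fusion library raised all 3 counts. The share of all genes called in these refits is not given here, so their counts do not single out the 45.

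In all, 21 genes were called against untreated in at least 1 transfected group, 15 of them higher and 6 lower, and 24 in none. ORC1, CDC6 and POLA2 were higher in all 3 groups. How many of all genes were called in at least 1 group, or in all 3, is not given here, so these counts do not single out the replication genes. Of the 44 calls over all comparisons, 3 were kept whichever single library was left out: CDC6 and RFC5 with DamV133A and MCM5 with the fusion, each over untreated. The first 2 were also kept under every other alternative tried.

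**Figure D3:**
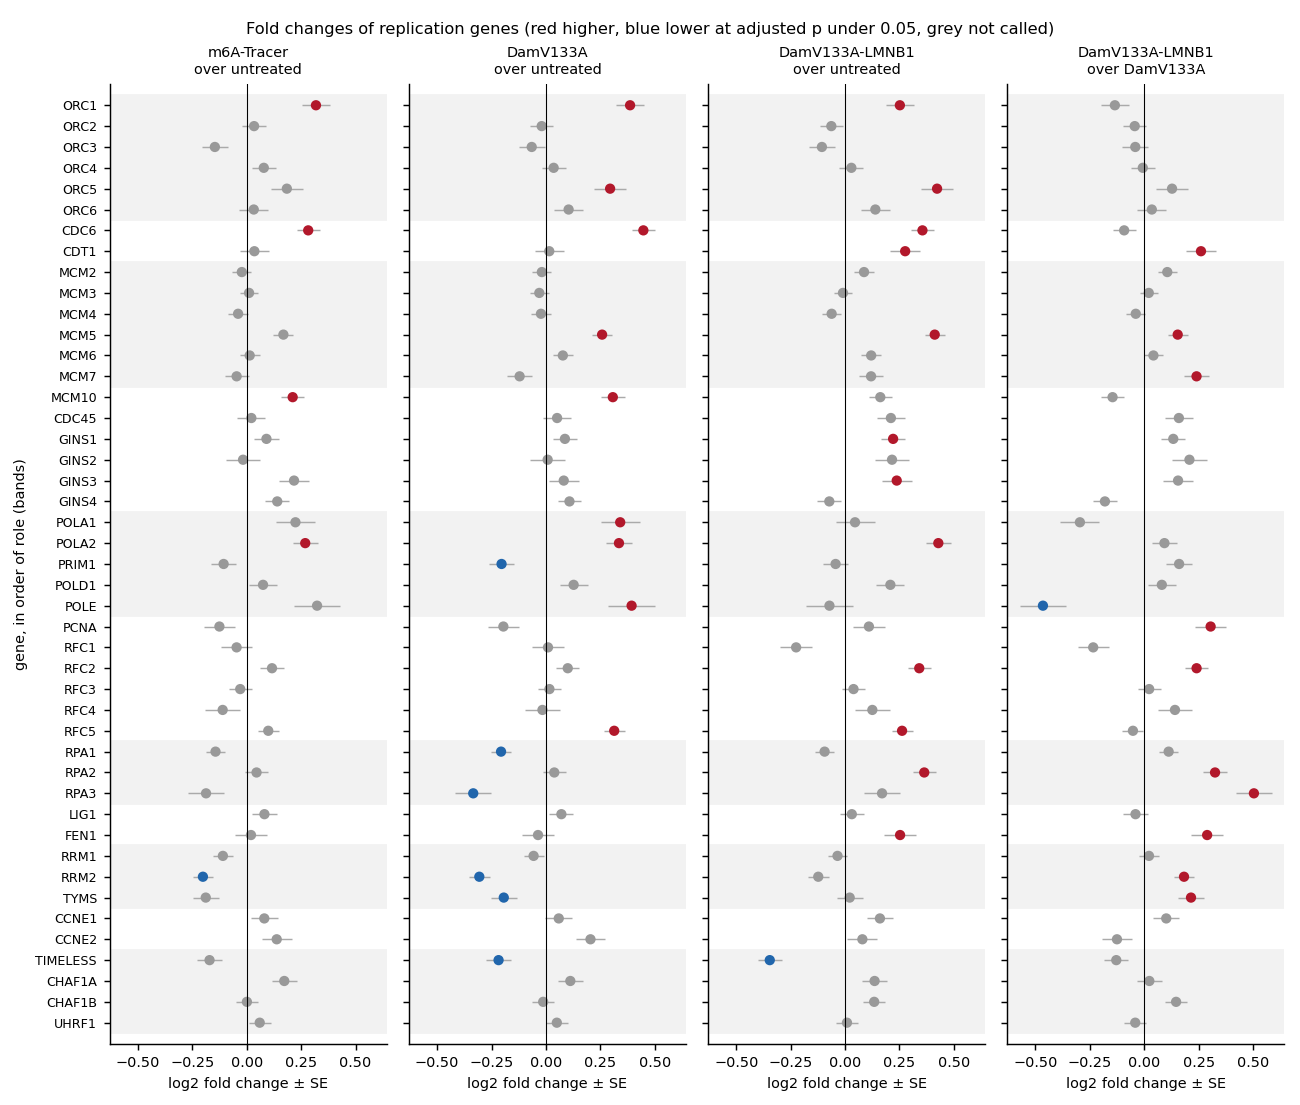
Log2 fold change with its standard error (x axes) of the 45 replication genes (y axis, grouped by role in bands) in 4 comparisons; red and blue points are genes called higher and lower at an adjusted p under 0.05 (edgeR quasi-likelihood), grey points are not called. All points over untreated lie within 0.5 of 0, with red points for ORC1, CDC6 and POLA2 in each of the first 3 panels and the lone blue point of the last panel at POLE.

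Of the origin recognition complex, which marks the sites where replication can start, ORC1 and ORC5 were higher and the other 4 subunits were not called against untreated. ORC1, the subunit that comes and goes with the cell cycle, was at 64.6 and 65.5 CPM in untreated libraries, 81.0 and 81.1 with m6A-Tracer, 84.9 and 85.1 with DamV133A, and 81.9 and 72.9 with the fusion. All 6 transfected libraries were above both untreated ones. The log2 differences were 0.32 ± 0.07 (SE; adjusted p = 0.020), 0.39 ± 0.06 (adjusted p = 0.0049) and 0.25 ± 0.07 (adjusted p = 0.033) in that order. ORC5, an ATP-binding subunit, was at 40.4 and 45.1 CPM untreated, 49.9 and 47.3 with m6A-Tracer, 53.2 and 51.7 with DamV133A, and 55.4 and 59.3 with the fusion. It too was above untreated in all 6 libraries, and it was called with DamV133A (0.29 ± 0.07, adjusted p = 0.022) and the fusion (0.42 ± 0.07, adjusted p = 0.0085), not with m6A-Tracer (0.18 ± 0.07, adjusted p = 0.14). Differences of ORC2, ORC3, ORC4 and ORC6 ranged from -0.15 to 0.14. ORC1 overlaps the neighbouring gene PRPF38A in the annotation, and since the strand setting of the counting is not given, reads there could be split between them.

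Both loaders were called higher in at least 1 group. CDC6, the ATPase that recruits the helicase to ORC, was at 125 and 129 CPM untreated, 153 and 156 with m6A-Tracer, 174 and 173 with DamV133A, and 168 and 157 with the fusion. The untreated libraries lay below all others, and the DamV133A libraries above the m6A-Tracer ones. The difference from untreated was 0.45 ± 0.05 with DamV133A (adjusted p = 0.0013), 0.36 ± 0.05 with the fusion (adjusted p = 0.0048) and 0.28 ± 0.05 with m6A-Tracer (adjusted p = 0.014), and the DamV133A value has the smallest adjusted p of the 45 genes in any comparison. CDT1, which escorts the helicase to origins and is destroyed in S phase, was at 286 and 271 CPM untreated, 285 and 286 with m6A-Tracer, 283 and 281 with DamV133A, and 315 and 360.0 with the fusion. It was higher with the fusion than in untreated cells (0.28 ± 0.07, adjusted p = 0.028) and than with DamV133A (0.26 ± 0.07, adjusted p = 0.035), and stood at 0.02 and 0.03 over untreated with DamV133A and m6A-Tracer.

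Among the 6 subunits of the MCM2-7 ring, MCM5 was called against untreated and the other 5 were not. MCM5, whose interface with MCM2 is the gate of the ring, was at 258 and 253 CPM untreated, 288 and 287 with m6A-Tracer, 307 and 305 with DamV133A, and 333 and 348 with the fusion. The 4 groups did not overlap and stood in that order. The difference from untreated was 0.41 ± 0.05 with the fusion (adjusted p = 0.0016) and 0.26 ± 0.05 with DamV133A (adjusted p = 0.0060), and 0.17 ± 0.05 with m6A-Tracer missed the threshold (adjusted p = 0.0505). MCM5 was also called between the fusion and DamV133A (0.15 ± 0.05, adjusted p = 0.049), a call lost under all 6 alternatives of scaling, filter, design and tool. MCM7 was at 712 and 697 CPM untreated, 685 and 679 with m6A-Tracer, 656 and 640.2 with DamV133A, and 725 and 806 with the fusion. It was called only between the fusion and DamV133A (0.24 ± 0.06, adjusted p = 0.027), where DamV133A was the lowest group. MCM7 overlaps AP4M1 and hosts the microRNAs of the MIR25, MIR93 and MIR106B cluster, and reads could be split there as well. MCM2, MCM3, MCM4 and MCM6 lay between -0.06 and 0.12 of untreated in every group.

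Of the genes that turn the loaded ring into an active helicase, MCM10, GINS1 and GINS3 were called. MCM10, which acts when the double ring separates, was at 118 and 117 CPM untreated, 136 and 137 with m6A-Tracer, 145 and 146 with DamV133A, and 137 and 127 with the fusion. All transfected libraries were above untreated, and the call was made with DamV133A (0.31 ± 0.05, adjusted p = 0.0057) and m6A-Tracer (0.21 ± 0.05, adjusted p = 0.041), not the fusion (0.16 ± 0.05, adjusted p = 0.072). GINS1 and GINS3, subunits of the 4-part GINS complex, were called with the fusion, at 0.22 and 0.24, and stood at 0.08 to 0.22 in the other groups. CDC45, the helicase's other partner, was at 0.21 ± 0.06 with the fusion (adjusted p = 0.054), and GINS2 and GINS4 at 0.22 and -0.07.

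Of 5 polymerase and primase genes, POLA1, POLA2 and POLE were called higher and PRIM1 lower than untreated in at least 1 group. POLA2, the regulatory subunit of the polymerase that lays down primers, was at 113 and 114 CPM untreated, 136 and 137 with m6A-Tracer, 143 and 143 with DamV133A, and 145 and 160.1 with the fusion. The untreated libraries were below all others, with differences of 0.27 ± 0.06 (adjusted p = 0.024), 0.34 ± 0.06 (adjusted p = 0.0055) and 0.43 ± 0.06 (adjusted p = 0.0034). POLE, the leading-strand polymerase, was at 212 and 216 CPM untreated, 267 and 269 with m6A-Tracer, 277 and 285 with DamV133A, and 231 and 176 with the fusion. Here the untreated values lay between the 2 fusion libraries. Against untreated cells POLE was not called with the fusion (-0.07 ± 0.11). The difference was -0.27 without fusion library 1 and 0.11 without fusion library 2, so the direction of POLE there depends on the library. POLE was higher with DamV133A than in untreated cells (0.39 ± 0.11, adjusted p = 0.029) and lower with the fusion than with DamV133A (-0.47 ± 0.11, adjusted p = 0.027). PRIM1, the catalytic primase subunit, was at 50.0 and 53.4 CPM untreated, 47.9 and 48.1 with m6A-Tracer, 44.5 and 45.2 with DamV133A, and 49.7 and 50.7 with the fusion. It was lower with DamV133A (-0.20 ± 0.06, adjusted p = 0.035), where both libraries were the lowest of the 8. POLA1, the catalytic partner of POLA2, was higher with DamV133A (0.34 ± 0.09, adjusted p = 0.026), and POLD1, of the lagging-strand polymerase, was not called (0.07 to 0.21).

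Of PCNA, the sliding clamp that tethers polymerases to DNA, and the 5 subunits of its loader RFC, RFC2 and RFC5 were called against untreated. PCNA was at 319 and 317 CPM untreated, 291 and 291 with m6A-Tracer, 279 and 276 with DamV133A, and 315 and 371 with the fusion. It was not called against untreated in any group, and was higher with the fusion than with DamV133A (0.31 ± 0.07, adjusted p = 0.029). RFC2 was at 115 and 118 CPM untreated, 125 and 127 with m6A-Tracer, 125 and 124 with DamV133A, and 142 and 152 with the fusion, the highest pair (0.34 ± 0.05 over untreated, adjusted p = 0.0059, and 0.24 ± 0.05 over DamV133A, adjusted p = 0.025). RFC5 was at 124 and 122 CPM untreated, 129 and 134 with m6A-Tracer, 151 and 154 with DamV133A, and 148 and 147 with the fusion. In RFC5 both Dam-bearing groups were above the other 4 libraries (0.31 ± 0.05 with DamV133A, adjusted p = 0.0034, and 0.26 ± 0.05 with the fusion, adjusted p = 0.010, over untreated). RFC5 overlaps WSB2 in the annotation. RFC1, RFC3 and RFC4 were not called, at -0.22 to 0.13 over untreated.

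RPA, which coats single-stranded DNA, is a complex of 3 subunits, and over untreated cells RPA2 was called higher with the fusion and RPA1 and RPA3 lower with DamV133A. RPA1 was at 298 and 295 CPM untreated, 268 and 269 with m6A-Tracer, 259 and 255 with DamV133A, and 282 and 273 with the fusion, and was lower with DamV133A (-0.21 ± 0.04, adjusted p = 0.013). RPA2, the subunit phosphorylated under replication stress, was at 171 and 176 CPM untreated, 177 and 180.2 with m6A-Tracer, 177 and 179 with DamV133A, and 215 and 231 with the fusion. It was higher with the fusion than in untreated cells (0.36 ± 0.05, adjusted p = 0.0047) and than with DamV133A (0.33 ± 0.05, adjusted p = 0.018). RPA3, the smallest subunit, was at 46.1 and 46.4 CPM untreated, 39.5 and 41.7 with m6A-Tracer, 37.3 and 36.0 with DamV133A, and 47.8 and 56.2 with the fusion. It was lower with DamV133A than in untreated cells (-0.33 ± 0.08, adjusted p = 0.021) and higher with the fusion than with DamV133A (0.50 ± 0.08, adjusted p = 0.018). RPA1 stood at 0.11 ± 0.04 between the fusion and DamV133A (adjusted p = 0.10), so that all 3 subunits lay above 0 there. RPA3 overlaps UMAD1.

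FEN1, the nuclease that trims Okazaki fragment flaps, was at 148 and 143 CPM untreated, 147 and 147 with m6A-Tracer, 141 and 142 with DamV133A, and 159.5 and 186 with the fusion. It was higher with the fusion than in untreated cells (0.25 ± 0.07, adjusted p = 0.047) and than with DamV133A (0.29 ± 0.07, adjusted p = 0.033). LIG1, the ligase that seals the fragments, was not called in any comparison (0.03 to 0.08 over untreated).

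The nucleotide-supply enzymes were at or below the untreated level with DamV133A and m6A-Tracer. RRM2, the S phase subunit of ribonucleotide reductase, was at 264 and 270.0 CPM untreated, 233 and 232 with m6A-Tracer, 213 and 219.5 with DamV133A, and 241 and 249.9 with the fusion. All transfected libraries were below untreated, and the call was made with DamV133A (-0.31 ± 0.05, adjusted p = 0.0035) and m6A-Tracer (-0.20 ± 0.05, adjusted p = 0.032), not the fusion (-0.12 ± 0.05, adjusted p = 0.11). TYMS, which makes thymidylate, was at 174 and 170.1 CPM untreated, 151 and 150.3 with m6A-Tracer, 151 and 149 with DamV133A, and 165 and 183 with the fusion. It was lower with DamV133A (-0.19 ± 0.06, adjusted p = 0.045) and stood at -0.19 ± 0.06 with m6A-Tracer (adjusted p = 0.077). TYMS overlaps ENOSF1 and the antisense gene TYMSOS. RRM1, the large reductase subunit, was not called (-0.11 to -0.03).

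Cyclin E, which drives CDK2 at the entry to S phase, showed no call in either gene. CCNE2 was at 20.6 and 21.9 CPM untreated, 23.3 and 23.4 with m6A-Tracer, 23.5 and 25.4 with DamV133A, and 22.5 and 22.4 with the fusion, and its difference was at most 0.20 ± 0.07 (DamV133A, adjusted p = 0.061). CCNE2 overlaps INTS8 and NDUFAF6 in the annotation. CCNE1 was at 0.06 to 0.16 over untreated. TIMELESS, which with TIPIN protects stalled forks, was at 213 and 218 CPM untreated, 191 and 193 with m6A-Tracer, 185 and 187 with DamV133A, and 178 and 162 with the fusion. It was the only one of the 45 called lower with the fusion (-0.35 ± 0.06, adjusted p = 0.0064), and it was lower with DamV133A as well (-0.22 ± 0.06, adjusted p = 0.025). The histone chaperone genes CHAF1A and CHAF1B and the methylation maintenance factor UHRF1 lay between -0.01 and 0.17 and were not called.

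By their labels the fusion and DamV133A groups differ in the lamin B1 part of the construct, and whether their treatment differed otherwise is not stated. Between them 10 of the 45 genes were higher and 1 lower, where 20.3% of all genes tested were called (12.7% higher and 7.55% lower). Of the 8335 genes at or above the level of the lowest of the 45, 32.3% were called (21.9% higher and 10.4% lower). The share of the 45 that was higher was thus near that of the 8335, which were not otherwise matched in level. The 10 were CDT1, MCM5, MCM7, PCNA, RFC2, RPA2, RPA3, FEN1, RRM2 and TYMS, and the 1 was POLE. The median over the 45 was 0.08, beside -0.02 over all genes. RPA3 had the largest difference upwards and POLE downwards. This split depends on the scaling. Under TMM the 45 genes were called 10 higher and 1 lower, and by library totals 4 higher and 6 lower, since scaling to totals puts the median of all genes at -0.10. By library totals the DamV133A over untreated split went from 9 and 6 to 17 and 2, with the median of all genes at 0.10, and m6A-Tracer over untreated from 4 and 1 to 9 and 0, with the median of all genes at 0.08. Relative to that shift the differences were as under TMM, and none of the 44 calls changed sign. Without any 1 of the untreated, m6A-Tracer or DamV133A libraries, the calls of the 45 between the fusion and DamV133A were lost. Without either fusion library they rose in number. The share of all genes called in these refits is not given here, so the changes do not single out the 45.

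Between DamV133A and m6A-Tracer no gene of the 45 was called by edgeR, where 0.124% of all genes were. Among the 8335 genes at or above the level of the lowest of the 45, 0.252% were called. Of the 45, 2 had an unadjusted p under 0.05, beside 1588 of all 17740 genes and 838 of those 8335. DESeq2 called 0 of the 45. Between the fusion and m6A-Tracer edgeR again called none, where 0.231% of all genes and 0.312% of those 8335 were called. There 23 of the 45 had an unadjusted p under 0.05, beside 5791 of all 17740 genes and 3957 of those 8335. DESeq2 called 9 of the 45, and its share over all genes is not given here, so the 9 do not single out these genes. The spread between the 2 fusion libraries enters the pooled error of every comparison. With fusion library 1 or 2 left out, 8 of the 45 were called between DamV133A and m6A-Tracer, and 6 of them in both fits: CDC6, MCM5, MCM10, POLA1, RFC5 and RRM2, named after their values were seen. Calls likewise appeared between the fusion and m6A-Tracer, where a lone fusion library is taken to vary like the other groups. The share of all genes called in these refits is not given here, so their counts do not single out the 45.

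The 2 fusion libraries differed in the replication genes, too. The median absolute log2 difference over the 45 was 0.097 between the fusion libraries. It was 0.173 for the 8335 genes at or above the level of the lowest of the 45. In the other pairs it was 0.031 (untreated), 0.017 (m6A-Tracer) and 0.023 (DamV133A) over the 45, against 0.038 to 0.039 for those 8335. The differences of fusion library 2 from library 1 ran from -0.39 (POLE) to 0.24 (GINS2). Neither fusion library can be preferred from the labels, so a fusion mean stands for 2 unlike values in genes such as POLE, PCNA and FEN1.

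**Figure D4:**
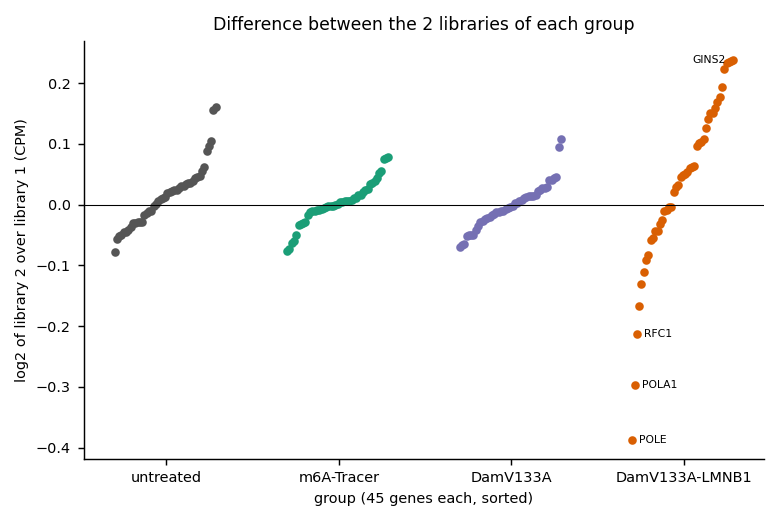
Log2 of library 2 over library 1 in CPM (y axis) for the 45 replication genes, sorted within each of 4 groups (x axis); each point is a gene. The fusion pair spreads from -0.39 (POLE) to 0.24 (GINS2), and the other pairs stay within -0.08 and 0.16.

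Other genes of the pathway gave the setting. Of the 8335 genes at or above the level of the lowest of the 45, 26.4%, 35.5% and 16.2% were called over untreated with fusion, DamV133A and m6A-Tracer. The gene lists that follow were held to no level beyond the filter for testing, so they are not matched to those genes. For G1/S control the shares were 46.7%, 43.3% and 23.3%, and for G2 and mitosis 41.7%, 54.2% and 20.8%. They were 18.4%, 39.5% and 13.2% for replisome factors, 32.1%, 32.1% and 14.3% for nucleotide synthesis, and 21.4%, 28.6% and 17.9% for checkpoint and repair. None of these gaps was tested. Of 38 further replisome factors, 6 were higher and 1 lower with the fusion than in untreated cells, 10 and 5 with DamV133A, and 3 and 2 with m6A-Tracer. The largest of these were ASF1A, a histone chaperone, at 0.42 (fusion), 0.46 (DamV133A) and 0.37 (m6A-Tracer), and MCM8 at 0.61 and ATAD5, which unloads PCNA, at 0.52 with DamV133A. Of 30 genes of G1/S control, 10 were higher and 4 lower with the fusion, 8 and 5 with DamV133A, and 4 and 3 with m6A-Tracer. With DamV133A and m6A-Tracer, E2F8 (0.71 and 0.52) and E2F7 (0.68 and 0.47), the repressive E2F factors, rose and CDKN1C (-0.97 and -0.74) fell. The largest calls with the fusion were E2F1 (0.52) and the CDK inhibitor genes CDKN1A (0.61) and CDKN2D (0.71), all higher. Genes are named by size within each comparison, so one not named for a group may still be called there. Of 28 other genes of nucleotide synthesis, 7 were higher and 2 lower with the fusion, 2 and 7 with DamV133A, and 2 and 2 with m6A-Tracer. RRM2B, the p53-regulated partner of RRM1, rose by 0.55 with DamV133A and 0.53 with m6A-Tracer, where RRM2 fell. Of 28 genes of the replication checkpoint and fork repair, 5 were higher and 1 lower with the fusion. The counts were 8 and 0 with DamV133A, and 5 and 0 with m6A-Tracer. With DamV133A the largest were HUS1 (0.70), BRIP1 (0.63) and EXO1 (0.54). HUS1 (0.57) and EXO1 (0.34) were also called with the fusion, and BRIP1 (0.50) and EXO1 (0.33) with m6A-Tracer. Of 24 genes of G2 and mitosis, 9 were higher and 1 lower with the fusion. They were 13 and 0 with DamV133A, and 5 and 0 with m6A-Tracer. Between the fusion and DamV133A, 10 of the genes described here were higher and 1 lower under TMM, and 4 and 6 by library totals. Of all genes tested, 12.7% were higher and 7.55% lower there under TMM, and of the 8335 genes 21.9% and 10.4%. Among further replisome factors, 5 were higher and 9 lower under TMM. The counts were 0 and 5 for checkpoint and fork repair, and 2 and 4 for G2 and mitosis. G1/S control had 3 and 3, and other nucleotide synthesis 9 and 3.

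The position of the genes relative to the lamina was read from the DamID libraries of the same study. Bulk DamV133A-LMNB1 was compared with bulk DamV133A (2 libraries each) over 27944 bins of 100 kb on hg38, where higher signal with the fusion marks lamina contact. The 44 genes on chromosomes 1 to 22 fell in 44 different tested bins, and POLA1, on X, had no bin. Of the 44 bins, 0 were called higher and 38 lower (86.4%), where 35.2% of all bins tested were called higher and 36.2% lower. At an unadjusted p under 0.05 edgeR also put 0 of the 44 higher. Without DamV133A library 2, 23 of the 44 were called. Protein-coding genes as a whole are mostly in such bins: of 19077, 66.7% were in a bin called lower and 11.3% in one called higher. These coding genes, here and in the single cells below, were not limited to genes expressed like the 45. The part of expression in the gap was not tested. The median log2 difference was -0.80 over the 44 bins, -0.76 over coding genes and -0.06 over all bins. The lowest was the bin of MCM5 (chr22:35400001-35500000), at 17.3 and 14.6 CPM with the fusion and 41.2 and 42.2 with DamV133A (-1.39 ± 0.23, adjusted p = 1.8e-05), followed by GINS4 (chr8:41500001-41600000, -1.26 ± 0.22) and CHAF1B (chr21:36400001-36500000, -1.22 ± 0.20). The highest was the bin of RPA3 (chr7:7600001-7700000), at 60.1 and 44.7 CPM with the fusion and 45.8 and 40.1 with DamV133A (0.29 ± 0.19, adjusted p = 0.18), followed by RFC4 (chr3:186700001-186800000, 0.05 ± 0.22) and ORC4 (chr2:147900001-148000000, -0.15 ± 0.19). The bins of CDT1, TYMS and RFC3 were not called either.

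**Figure D5:**
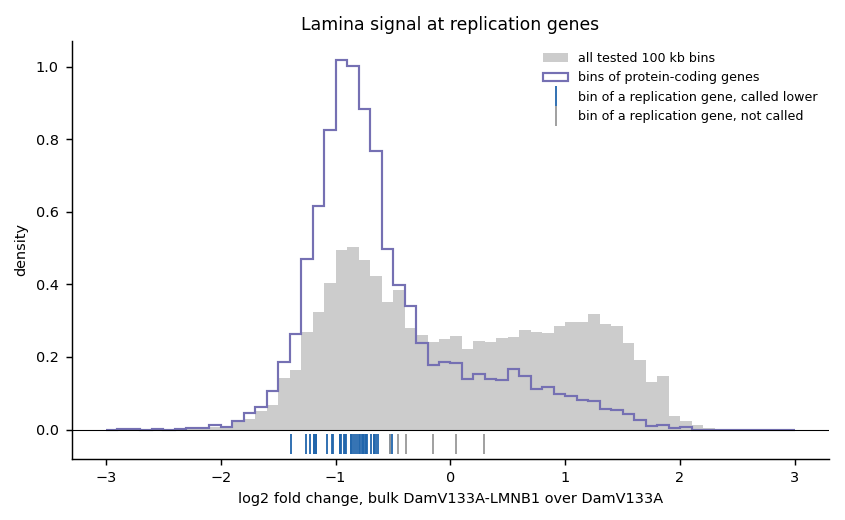
Distribution of the log2 fold change of bulk DamV133A-LMNB1 over DamV133A (x axis) in all tested 100 kb bins (grey) and in the bins of protein-coding genes (purple outline), as densities (y axis); ticks under the axis are the 44 bins of replication genes, blue where called lower and grey where not called. The ticks run from -1.39 (MCM5) to 0.29 (RPA3), under the left-hand peak.

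The same bins were then read in single cells. A cell was scored as in contact at a bin when its fragments reached the number expected from bulk DamV133A at the cell's depth; a cell had 9526 to 348793 fragments, and the median expectation in a replication gene's bin was 4.73 fragments. Averaged over the 44 bins, contact was scored in 12.6% of 15 DamV133A-LMNB1 cells of the first batch, which also carried m6A-Tracer, and in 14.8% of 36 DamV133A-tdTomato-LMNB1 cells of the second, which carried m6A-Tracer-NES. Over all bins the averages were 34.9% and 39.6%, and over bins of coding genes 20.5% and 23.1%. In 3 first-batch cells with DamV133A and m6A-Tracer but no lamin fusion it was 53.0%, against 37.3% over all bins and 46.9% over bins of coding genes. With cells thinned to 10000 fragments the gap to coding genes narrowed: replication genes stood at 14.0% beside 17.1% for coding genes in 14 cells of the first batch. In the second batch the shares were 17.0% beside 19.6%, and without the lamin fusion 36.4% beside 33.5%. Over all bins the thinned averages were 24.1%, 26.0% and 25.6%. The bin of MCM5 was marked in 0 of 15 and 5 of 36 cells (exact binomial 95% upper limits of 21.8% and 29.5%), and that of RPA3 in 3 of 15 and 13 of 36. With the cells of a group tied to no culture, each group is 1 sample and these shares have no test, and the limits cover counting error only.

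The RNA calls were counted with and without an E2F match, with no test of the difference. With DamV133A over untreated, 4 of the 18 genes with a match were called higher and 1 lower, and of the 21 with a window and no match 4 were higher and 4 lower. With the fusion over untreated, 5 of 18 were higher and 0 lower with a match, and 5 and 1 of 21 without. The median log2 differences were 0.03 with a match and 0.04 without for DamV133A, and 0.10 and 0.14 for the fusion. With m6A-Tracer, 2 of 18 were higher and 0 lower with a match, and 2 and 1 of 21 without. Between the fusion and DamV133A the counts were 4 and 1 with a match and 3 and 0 without. Of the printed windows that hold a match, CDC6, POLA2 and POLE were higher with DamV133A than in untreated cells and MCM7 was not called (-0.12). Of the printed windows without one, RFC5 was higher and RRM2 lower. The printed windows were picked for small adjusted p-values in these RNA comparisons, so their calls carry no weight about the motif.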

How the data were processed

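The authors deposited estimated counts per gene for 8 RNA libraries (4 groups of 2) and counts per 100 kb hg38 bin for 4 bulk and 54 single-cell DamID libraries of the 74 samples. Per the submitters' processing notes the tools were Salmon, DESeq2, limma, bedtools 2.28, SAMtools 1.9, BWA 0.7.15-r1140 and Trimmomatic 0.39, with no role given for any of them; the strand setting and the unit of the bulk coverage are not given in the sources used here. Estimated counts were rounded, filtered (filterByExpr, minimum count 10), TMM-scaled and fitted with edgeR 4.0.16 in R 4.3.3 (quasi-likelihood, 4 groups, no covariate, Benjamini-Hochberg, threshold 0.05). Bulk bins were fitted likewise. Single cells were scored against summed bulk DamV133A, with no test. The scripts were tested on simulated data. Each gene was assigned the bin holding the centre of its RefSeq span (GRCh38.p14). Values in every library are given for up to 6 called genes per direction and comparison with the smallest adjusted p and for the gene of each role with the largest difference; up to 3 genes per other list are named, by fold change. Of the list symbols, 2 were matched under older names. The members, lists and rules were chosen with earlier results of these data known. Replicate numbers did not pair the libraries (r from -0.05 to 0.02). Alternatives were other scalings, no filter, DESeq2 1.42.0, a replicate block, the 2 groups alone and each library left out. The bulk libraries comparing Dam variants were not used here.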

Additional observations from a re-analysis of the deposited data

How the results depend on the processing

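None of the 44 calls changed direction under the alternatives run. POLE, not called for the fusion over untreated, stood below untreated there without fusion library 1 and above it without fusion library 2. Of the 44 calls, DESeq2 size factors kept 41, the DESeq2 test 39, library totals 33, no filter 42, the replicate block 31 and the fit of only the 2 groups compared 20. Leaving out either fusion library kept all 44, untreated library 1 kept 4 and untreated library 2 kept 9, either m6A-Tracer library 18 and either DamV133A library 12; such fits take a lone library to vary like the other groups. For fusion over untreated (13 genes called), the 2 groups alone gave 0, and leaving out a library 1 to 33. For DamV133A over untreated (15), the 2 groups alone gave 25, and leaving out a library 3 to 26. For m6A-Tracer over untreated (5), library totals gave 9, the replicate block 3 and the 2 groups alone 22, and leaving out a library 0 to 24. For fusion over DamV133A (11), the replicate block gave 6 and the 2 groups alone 0, and leaving out a library 0 to 32. For DamV133A over m6A-Tracer (0), the 2 groups alone gave 8, and leaving out a library 0 to 8. For fusion over m6A-Tracer (0), no filter gave 14 and DESeq2 9, and leaving out a library 0 to 31. The cause of these changes was not tested. No share of all genes called is given here for these refits, so their counts do not single out the replication genes. The replicate numbers only name the libraries, since deviations of same-numbered libraries correlated at -0.05 to 0.02, and the block left fusion over untreated at 9, DamV133A over untreated at 13 and the bins at 38. For the 38 bins called, leaving out a library gave 23 to 37, with 23 without DamV133A library 2. Scoring contact at 2 times the expectation gave 3.03% and 3.91% in the fusion cells of batches 1 and 2 and 24.2% in the 3 DamV133A cells, and thinning to 10000 fragments gave 17.0% in batch 2 (coding-gene bins 19.6%) and 36.4% in the DamV133A cells (33.5%). With 2 libraries a group, and few fragments per bin and cell, small differences are not detectable.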
